A study of Mus musculus with 8 samples.

Results

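The genes described here carry the signal by which the somatic cells around a resting oocyte are thought to wake it: KIT ligand (Kitl), its receptor Kit, the kinase gene Akt1, the transcription factor gene Foxo3, the TSC complex genes Tsc1 and Tsc2, the small GTPase gene Rheb, and the mTOR complex genes Rptor and Mtor. They were taken by gene symbol, 9 in all, from a deposited table of 11783 genes. A row was found for 8 of the 9, and Mtor is not analysed here. RNA-seq profiled granulosa cells, the somatic cells that surround the oocyte, obtained by dissociating the ovaries of C57BL/6 mice. There were 4 libraries from postnatal day 4 (PND4) and 4 from postnatal day 1 (PND1). Age was the only difference the labels give between the groups, and no gene was altered and no agent was given, as far as they state. How the cells were purified, and whether each library is its own animal, pool or litter, is not stated in them. The p-values thus reflect only how far these libraries scatter, which may be technical. Values are FPKM, a level scaled to transcript length and library size, so levels may be compared between genes.

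In the ovary around birth, oocytes become enclosed by flattened pregranulosa cells as primordial follicles, and most then rest while a few start to grow. In mice, mTORC1 activity in pregranulosa cells raises KIT ligand at the cell surface. The ligand binds KIT on the oocyte, where PI3K and AKT signalling drives the transcription factor FOXO3 out of the nucleus and releases the oocyte from rest. TSC1 and TSC2 form a complex that keeps RHEB inactive. Active RHEB switches on mTORC1, whose substrates are recruited by RAPTOR, the product of Rptor. In this account Kitl and mTORC1 act in the granulosa cell, the sending side, and KIT and FOXO3 in the oocyte, the receiving side. Bulk libraries do not show which cells an RNA came from, so RNA of genes on either side may come from either cell.

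Both the ligand and the receptor gene make alternative coding transcripts, and the segments that set them apart are shown because a gene-level FPKM adds them together. In Kitl the alternative segment is the whole of exon 6, chr10:100080857-100080940 on the plus strand of GRCm38, 84 bases or 28 codons long. It encodes the site at which the ligand is cut from the cell surface, so a transcript with it gives a readily shed ligand and one without it a ligand that stays mainly on the membrane. The coding sequence is 819 bases long in Kitl-202, which holds exon 6, and 735 bases long in Kitl-201, which skips it. In Kit the segment is the last 12 bases of exon 9, chr5:75639147-75639158 on the plus strand, which add 4 codons just outside the membrane in Kit-201 (coding length 2937 bases) and are absent from Kit-204 (2925 bases). The sequences below are GENCODE M21 transcript sequence on GRCm38, 5′ to 3′, with 18 bases of each neighbouring part in lower case and the alternative segment in capitals.
Kitl-202: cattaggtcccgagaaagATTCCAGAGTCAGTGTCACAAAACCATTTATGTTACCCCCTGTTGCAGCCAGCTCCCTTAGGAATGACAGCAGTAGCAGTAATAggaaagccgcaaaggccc
Kitl-201: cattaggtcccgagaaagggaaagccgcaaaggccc
Kit-201: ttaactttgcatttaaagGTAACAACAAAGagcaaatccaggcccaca
Kit-204: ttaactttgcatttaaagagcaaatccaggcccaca
In both genes the segment is a whole number of codons, so both forms keep the reading frame. Each value of Kitl or Kit given here is a sum over such forms, and the share of each form was not measured.

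As a check of the labels, all 14 pregranulosa and granulosa markers looked for had a row, among them the keratin gene Krt18 and the transcription factor genes Foxl2, Gata4 and Wt1. A row alone does not show expression, as Amh, also among the 14, was too low to be tested. Amh averaged 3.43 FPKM at PND4 and 0.0598 FPKM at PND1. The summed level of the 14 ran from 983 to 1372 FPKM at PND4 and from 907 to 1387 FPKM at PND1. Most of that sum was keratin RNA, as Krt18 and Krt8 averaged 487 and 355 FPKM at PND4 and 500 and 390 FPKM at PND1. Oocyte RNA was present too, with 13 of 15 markers listed, and summed to between 45.9 and 303 FPKM at PND4 and between 13.3 and 77.0 FPKM at PND1. Ovarian surface epithelium markers (6 of 6 listed) summed to between 142 and 277 FPKM at PND4 and between 77.2 and 219 FPKM at PND1, and that epithelium also expresses the keratins Krt8, Krt18 and Krt19, which were counted among the granulosa markers. Stroma markers (8 of 9 listed) summed to between 127 and 163 FPKM at PND4 and between 94.1 and 113 FPKM at PND1. Erythroid markers (3 of 6 listed) summed to between 0.268 and 11.4 FPKM at PND4 and between 17.1 and 48.9 FPKM at PND1. Immune cell markers (5 of 8 listed) summed to between 2.92 and 59.8 FPKM at PND4 and between 9.27 and 29.8 FPKM at PND1. The 59.8 FPKM was in PND4 replicate 1, where the immune cell marker Lyz2 had 55.8 FPKM. In bulk samples fewer cells of a type and less RNA per cell cannot be told apart. The read depth behind the FPKM is unknown, and between 222 and 1234 of the 11783 genes were listed at 0 in a library.

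None of the 8 genes differed between PND4 and PND1 beyond the spread of the libraries. The test was limma on log2(FPKM + 1) over the 10756 genes that reached 1 FPKM in 4 or more libraries, with p-values adjusted by the Benjamini-Hochberg method. All 8 genes were among those tested, and 0 of 8 had an adjusted p under 0.05, where 0.0093% of all genes tested did. Without adjustment 0 of 8 had a p under 0.05, against 5.9% of all genes. The libraries of the ages overlapped for each of the 8 genes, while 4.24% of all genes tested had libraries that did not overlap. A share of 0 of 8 lies near each of these backgrounds. By the q in the authors' deposited table, 0 of the 8 genes and 0.0% of its rows were under 0.05.

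The genes stood at very different levels, and the same 3 genes led at both ages. Akt1 was highest, above 97.0% of all genes in the table by its mean over the libraries, followed by Kitl (above 93.0%) and Rheb (above 91.4%). Akt1 exceeded Kitl in 8 of 8 libraries without overlap of their ranges, but Kitl exceeded Rheb in only 6 of 8 and their ranges overlapped. Rheb in turn exceeded the fourth gene, Foxo3, in 8 of 8 libraries, with a mean 6.38 times as high. Foxo3 and Tsc2 lay near the middle of the table (above 52.3% of genes each) and could not be told apart, with Foxo3 higher in 4 of 8 libraries. Kit, Rptor and Tsc1 were low, above 33.3%, 28.4% and 8.80% of genes. Tsc2 exceeded Kit in 7 of 8 libraries, Kit exceeded Rptor in 3 of 8, and Rptor exceeded Tsc1 in 8 of 8.

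**Figure D1:**
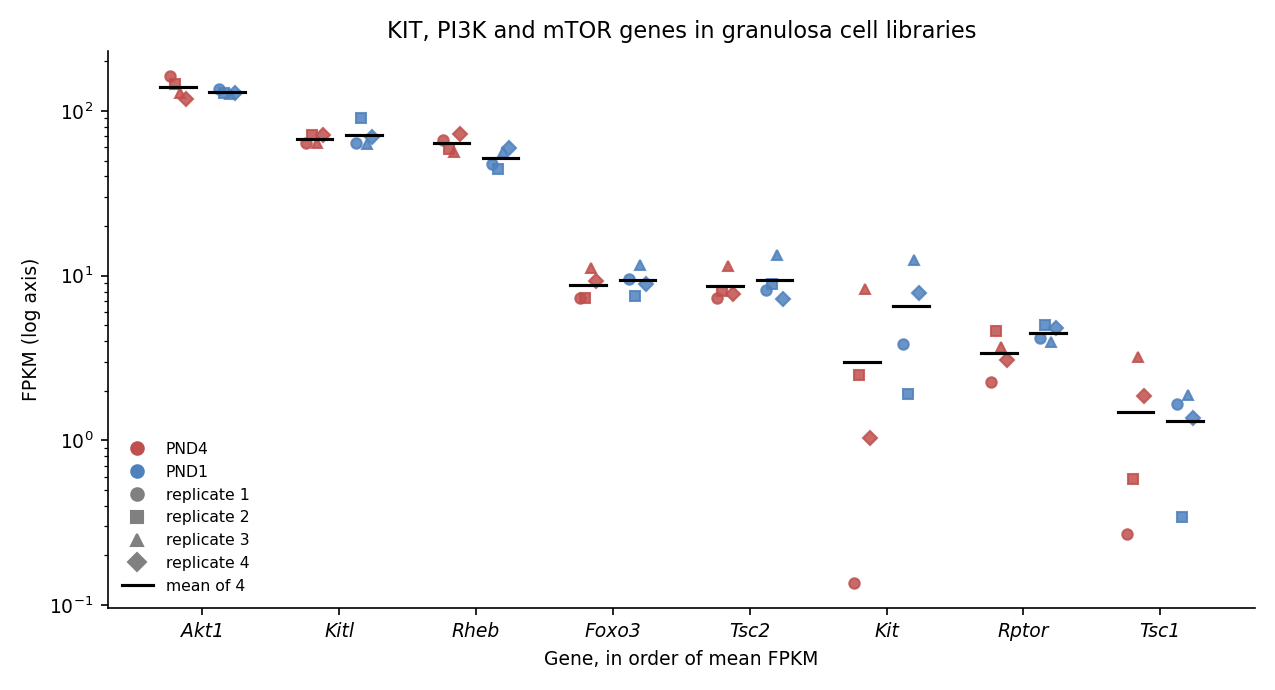
FPKM on a log axis of the 8 genes in each library, with PND4 (red) left of PND1 (blue), a marker shape for each replicate number and a black line at the mean of 4 libraries. Akt1, Kitl and Rheb sit above 40 FPKM in every library, and Kit has the widest spread, from 0.137 to 12.4 FPKM.

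Kitl (ENSMUSG00000019966, chr10:100015630-100100416, plus strand), the ligand gene, was abundant, and its spread within an age was ordinary for its level, with 59.3% of the 1000 genes nearest in mean level varying more. It had 63.4, 71.8, 64.2 and 71.4 FPKM in the PND4 libraries, replicates 1 to 4, against 63.5, 90.8, 62.8 and 69.1 FPKM in the PND1 libraries. Apart from PND1 replicate 2, all libraries lay within a narrow band that both ages shared. The difference of PND4 over PND1 was 0.957-fold on the log2(FPKM + 1) scale, with a 95% interval of 0.774-fold to 1.18-fold (limma, unadjusted p = 0.655, adjusted p = 0.945). PND1 replicate 2, where Kitl was highest, had the lowest granulosa marker sum of the PND1 libraries, 907 FPKM against at least 1350 in the others, but the markers did not move as one. The keratin genes Krt18 (378 FPKM), Krt8 (272 FPKM) and Krt19 (44.5 FPKM) were at their PND1 lowest there, as were the surface epithelium sum (77.2 FPKM) and the oocyte sum. Foxl2 (19.3 FPKM), Fst (15.3 FPKM) and Inha (56.3 FPKM), for a transcription factor and secreted products of granulosa cells, were at their PND1 highest there. The granulosa markers Wt1, Amhr2, Irx3 and Nr2f2, which are not keratins, were at their PND1 lowest there too. Gata4, Nr5a1 and Wnt4 were at neither extreme. Without that library the log2 difference was 0.055, where it was -0.064 with all 8, and the part of these marker levels in the Kitl value was not tested.

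Kit (ENSMUSG00000005672, chr5:75574916-75656722, plus strand), the receptor gene, was low and varied more than any other of the 8. It had 0.137, 2.49, 8.30 and 1.04 FPKM in the PND4 libraries, against 3.84, 1.91, 12.4 and 7.87 FPKM in the PND1 libraries. PND4 replicates 1 and 4 lay below every PND1 library, while PND4 replicate 3 lay above 3 of the 4 PND1 libraries. The log2 difference was -1.12, or 0.460-fold, with a 95% interval of 0.170-fold to 1.25-fold (limma, unadjusted p = 0.116, adjusted p = 0.805). Among the 1000 genes nearest in mean level, 5.80% had a larger spread within an age. In the authors' deposited table Kit had the largest ratio of the 8 genes, 2.80-fold for PND1 over PND4 (p = 0.0734, q = 0.742).

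Within each age the order of the libraries by Kit was that by oocyte marker sum. At PND4 the oocyte sum was 45.9, 69.6, 303 and 62.8 FPKM in replicates 1 to 4, and at PND1 it was 49.8, 13.3, 77.0 and 53.8 FPKM. Replicate 3 was highest for both at each age, and the library lowest for Kit (PND4 replicate 1, PND1 replicate 2) was lowest for the oocyte sum. The mean of Kit was lower at PND4. The highest oocyte sum was that of PND4 replicate 3, while the sums of PND4 replicates 1, 2 and 4 lay within the PND1 range. Of the 12 oocyte markers tested, 5 were lower at PND4, as Kit was (Dazl, Figla, Nobox, Sohlh1 and Lhx8), and 7 were higher. The part of carried-over oocyte RNA in the Kit values was not tested. Mast cells also express Kit, and the 6 mast cell markers looked for are not analysed here.

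**Figure D2:**
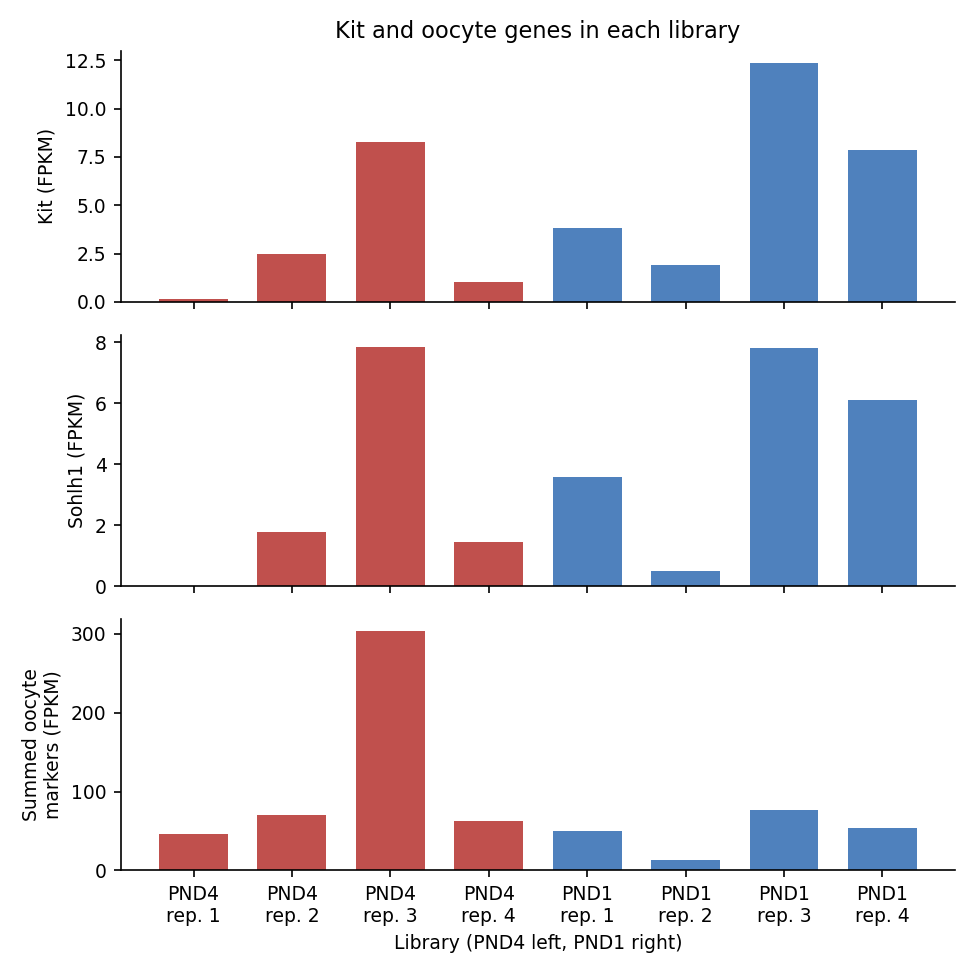
FPKM of Kit (top), of the germ cell gene Sohlh1 (middle) and of 13 summed oocyte markers (bottom) in each library, PND4 in red at the left and PND1 in blue at the right. In each age replicate 3 has the tallest bar of all 3 quantities, and the oocyte sum of PND4 replicate 3, 303 FPKM, stands far above the others.

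The genes whose level followed that of Kit most closely were sought among 2407 genes whose own SD was at least 0.5 times that of Kit. Genes with symbols of Gm and a number, or ending in Rik, had been left out, here and for Kitl. Closeness was the SD over the 8 libraries of the log2(FPKM + 1) difference to Kit. The closest was Sohlh1, a transcription factor gene of germ cells, with an SD of 0.37, where the SD of Kit itself was 1.21. Sohlh1 had 0, 1.79, 7.85 and 1.44 FPKM at PND4 and 3.59, 0.5004, 7.82 and 6.11 FPKM at PND1. It was itself 1 of the 13 oocyte markers. AU015836 (SD 0.40), the RNA-binding protein gene Cpeb1 (SD 0.43), the matrix proteoglycan gene Agrn (SD 0.47) and Tmem108 (SD 0.49) came next. Around Kitl, whose own SD was 0.18, the closest of 9338 genes was P4hb, for an enzyme that folds secreted proteins, with an SD of 0.038. P4hb had 182, 218, 189 and 207 FPKM at PND4 and 194, 258, 181 and 204.1 FPKM at PND1, so its highest library was PND1 replicate 2, as for Kitl. The Golgi GTPase gene Arl1 (SD 0.055), Vps52 (SD 0.081), the phosphatase gene Ptp4a2 (SD 0.091) and the pseudogene Rpl17-ps10 (SD 0.092) followed. All these genes were picked from many as the closest over 8 libraries, so a small SD is partly the result of the search.

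Akt1 (ENSMUSG00000001729, chr12:112653821-112674884, minus strand), for the kinase that PI3K activates, had 163, 146, 128 and 119 FPKM in the PND4 libraries, against 136, 129, 127 and 128 FPKM in the PND1 libraries. The PND1 values fell almost together, and the PND4 values spread to either side of them. The log2 difference was 0.083 (95% interval 0.887-fold to 1.27-fold, limma adjusted p = 0.912), and it was -0.0019 with upper-quartile scaling. Foxo3 (ENSMUSG00000048756, chr10:42181841-42276755, minus strand), for the transcription factor that holds the oocyte at rest, had 7.33, 7.30, 11.1 and 9.25 FPKM in the PND4 libraries, against 9.58, 7.48, 11.5 and 8.89 FPKM in the PND1 libraries. Replicate 3 was the highest library at each age. The log2 difference was -0.093 (0.938-fold, 95% interval 0.659-fold to 1.33-fold, limma adjusted p = 0.956), and it was 0.0030 without PND1 replicate 3.

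The brake on mTORC1 is the complex of TSC1 and TSC2, and neither of its genes passed the test. Tsc2 (ENSMUSG00000002496, chr17:24595816-24632630, minus strand), for the subunit that inactivates RHEB, had 7.30, 8.10, 11.5 and 7.76 FPKM in the PND4 libraries, against 8.22, 8.84, 13.4 and 7.19 FPKM in the PND1 libraries. Its log2 difference was -0.093 (0.938-fold, 95% interval 0.640-fold to 1.37-fold, limma adjusted p = 0.960) and turned to 0.073 without PND1 replicate 3. Tsc2 shares 693 exonic bases, 7.2% of its own, with Pkd1 on the opposite strand, and no source used here says if reads were counted by strand, so reads in that stretch cannot be assigned with certainty.

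Tsc1 (ENSMUSG00000026812, chr2:28641228-28691167, plus strand), for the subunit that stabilises TSC2, had 0.269, 0.581, 3.21 and 1.87 FPKM in the PND4 libraries, against 1.65, 0.340, 1.89 and 1.37 FPKM in the PND1 libraries. Replicate 3 was again highest at each age, and the highest library of all was 11.9 times the lowest. The log2 difference was -0.0024, with an interval of 0.459-fold to 2.17-fold (limma adjusted p = 0.999), so neither a doubling nor a halving lay outside it.

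Rheb (ENSMUSG00000028945, chr5:24802823-24842624, minus strand), for the GTPase that switches on mTORC1, had the smallest limma p of the 8 genes. It had 66.9, 58.6, 56.2 and 72.7 FPKM in the PND4 libraries, against 47.5, 44.3, 56.5 and 59.8 FPKM in the PND1 libraries. Its 2 highest libraries were both PND4, its 2 lowest both PND1, and the other 4 overlapped. The mean was 63.6 ± 7.60 FPKM at PND4 and 52.0 ± 7.30 FPKM at PND1 (SD, n = 4 each), a log2 difference of 0.29 or 1.22-fold (95% interval 0.984-fold to 1.51-fold, limma unadjusted p = 0.0661, adjusted p = 0.805). All genes tested had a median log2 difference of 0.078, and with median-of-ratios scaling, which lowered that median to 0.0086, Rheb stood at 0.21 (unadjusted p = 0.169). The authors' deposited table gave 0.836-fold for PND1 over PND4 (p = 0.122, q = 0.742).

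Rptor (ENSMUSG00000025583, chr11:119602905-119899576, plus strand), for the subunit that brings substrates to mTORC1, had 2.26, 4.596, 3.69 and 3.05 FPKM in the PND4 libraries, against 4.15, 4.999, 3.94 and 4.80 FPKM in the PND1 libraries. The PND4 libraries 1, 3 and 4 lay below all PND1 libraries, and PND4 replicate 2 lay among them. The log2 difference was -0.34 (0.791-fold, 95% interval 0.504-fold to 1.24-fold, limma unadjusted p = 0.276, adjusted p = 0.856). Rptor was steady for a gene of its level, as 96.9% of the 1000 genes nearest in mean had a larger spread within an age. The authors' deposited table gave 1.32-fold for PND1 over PND4 (p = 0.0676, q = 0.742), the smallest p of the 8 genes in that table. Rptor shares 84 exonic bases, 0.624% of its own, with the antisense gene Rptoros.

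**Figure D3:**
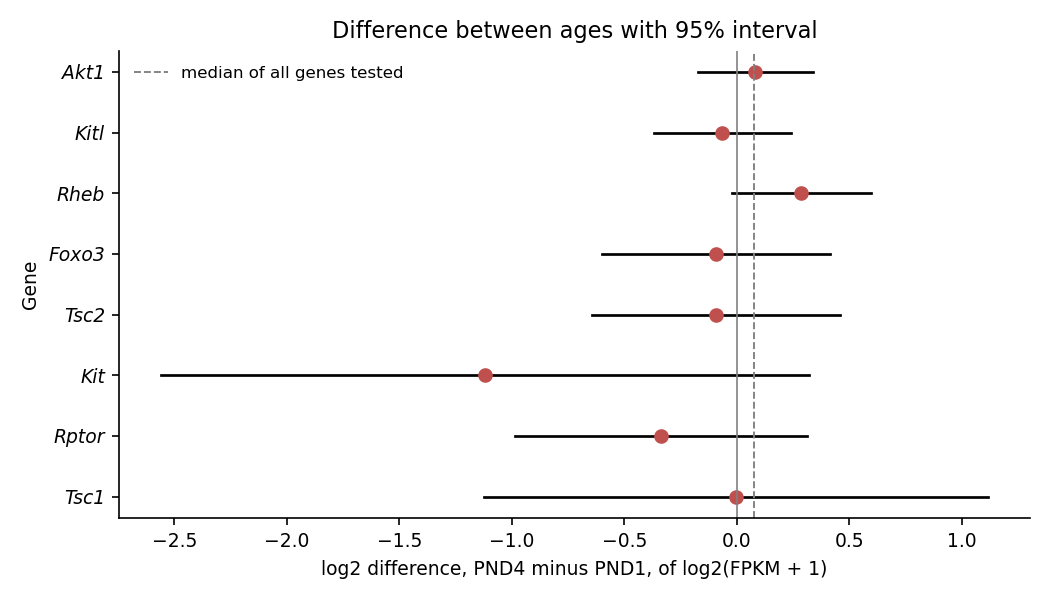
Log2 difference of PND4 minus PND1 (x axis, log2(FPKM + 1) scale) of the 8 genes, with 95% intervals from limma. Every interval holds 0 and the median of all genes tested (dashed, 0.078). The intervals of Akt1, Kitl and Rheb are the narrowest, and that of Kit runs from -2.56 to 0.32.

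On the log2 scale the mean at PND4 was higher for 2 of the 8 genes and lower for 6. The median of the 8 differences was -0.078, where that of all genes tested was 0.078. Several of these signs turned with single libraries or settings, as given for each gene.

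Ratios between genes in the same library need no scaling between libraries, and 4 were compared by exact two-sided permutation over the 70 assignments of libraries to ages, whose smallest possible p is 0.0286. Kit over Kitl was 0.00216, 0.0346, 0.129 and 0.0145 in the PND4 libraries, against 0.0605, 0.0210, 0.197 and 0.114 in the PND1 libraries. The receptor RNA was thus below that of the ligand in each library, and the ages overlapped (difference in mean log2 ratio -1.92, exact p = 0.257, adjusted over the 4 ratios p = 0.514). That difference was -0.86 without PND4 replicate 1 and -1.06 with a pseudocount of 1. Rheb over Tsc2, the switch over its brake, was 9.17, 7.24, 4.90 and 9.37 at PND4, against 5.78, 5.02, 4.23 and 8.32 at PND1 (difference 0.40, exact p = 0.257, adjusted p = 0.514). Tsc1 over Tsc2 had a median of 0.156 at PND4 and 0.166 at PND1 (difference -0.058, exact p = 0.971, adjusted p = 0.971). Foxo3 over Akt1 had a median of 0.0640 at PND4 and 0.0699 at PND1 (difference -0.19, exact p = 0.486, adjusted p = 0.648). Adjusted over 4 ratios, this test can pass only where most of them reach its smallest p together.

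Beyond these genes, 102 others of the same pathway were listed by role, of which 82 had a row and 79 were tested. None of the 79 passed (limma, smallest adjusted p = 0.556), and without adjustment 5 were higher and 0 lower at PND4 with a p under 0.05, namely Cat, Lamtor3, Seh1l, Eif4ebp1 and Eif4b. That is 6.33% of them, near the 5.9% of all genes. With median-of-ratios scaling the 5 and 0 became 2 and 2, and over all genes tested 437 higher and 198 lower became 241 and 321. Their median log2 difference was 0.14, where that of all genes was 0.078.

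Upstream, the genes that couple receptors to PI3K gave no called difference. Of the KIT adaptors 9 were tested, with a median log2 difference of 0.019. The phosphatase gene Ptpn11 had 23.6 ± 1.39 FPKM at PND4 and 23.8 ± 2.90 at PND1, and the adaptor gene Shc1 18.7 ± 8.46 FPKM at PND4 and 21.03 ± 3.74 at PND1. Sh2b3, for an adaptor that restrains KIT, had the largest difference there, with 4.43 ± 2.07 FPKM at PND4 and 2.68 ± 0.910 at PND1 (adjusted p = 0.834). The insulin receptor substrate gene Irs2 had 13.7 ± 2.93 FPKM at PND4 and 10.5 ± 0.256 at PND1, and the growth factor receptor gene Igf1r 7.60 ± 1.34 FPKM at PND4 and 6.24 ± 1.19 at PND1. These values are means ± SD with n = 4 libraries per age, as are those that follow.

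Of the class I PI3K subunits 5 were tested (median 0.028). The regulatory subunit gene Pik3r2 stood at 13.8 ± 3.04 FPKM at PND4 and 12.2 ± 2.26 at PND1, and Pik3r1 at 5.62 ± 2.05 FPKM at PND4 and 7.37 ± 1.90 at PND1. Pik3r3, another regulatory subunit gene, had the largest difference of any PI3K gene, with 2.20 ± 1.52 FPKM at PND4 and 4.84 ± 2.13 at PND1 (log2 difference -0.89, limma unadjusted p = 0.0658, adjusted p = 0.805). The lipid phosphatase gene Inppl1 had 37.7 ± 5.21 FPKM at PND4 and 39.8 ± 5.73 at PND1.

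Among the AKT kinases and GSK3, 6 genes were tested with Akt1 (median 0.083). Akt2, at 25.3 ± 7.13 FPKM at PND4 and 29.2 ± 9.04 at PND1, stood below Akt1 in level per length. The AKT substrate genes Gsk3a and Gsk3b had 46.6 ± 8.87 and 17.0 ± 7.16 FPKM at PND4, against 43.5 ± 4.76 and 11.6 ± 7.17 FPKM at PND1. Of the FOXO genes, Foxo6 stood at 8.95 ± 4.00 FPKM at PND4 and 7.85 ± 2.70 at PND1, close to Foxo3. Foxo1, a FOXO gene of granulosa cells, had 3.85 ± 1.42 FPKM at PND4 and 2.77 ± 0.778 at PND1, and Foxo4 1.69 ± 1.52 FPKM at PND4 and 2.60 ± 1.09 at PND1.

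Of genes known as FOXO targets 8 were tested (median -0.043, and 0.38 where genes with a mean under 5 FPKM were left out), and 1 had an unadjusted p under 0.05. This was Cat, for the antioxidant enzyme catalase, with 79.6, 83.3, 88.7 and 101 FPKM in the PND4 libraries, against 60.7, 48.7, 63.5 and 63.6 FPKM in the PND1 libraries. Its ages did not overlap, but the log2 difference of 0.57 did not pass over all genes (limma unadjusted p = 0.00111, adjusted p = 0.556). The cell cycle inhibitor gene Cdkn1b, which like Foxo3 holds mouse oocytes at rest, had 10.7 ± 2.05 FPKM at PND4 and 7.44 ± 4.17 at PND1 (adjusted p = 0.805).

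In the TSC and mTOR complexes, Tbc1d7, for a further TSC subunit, had 4.33 ± 2.15 FPKM at PND4 and 2.91 ± 1.42 at PND1. The 4 mTORC1 subunit genes tested, Rptor among them, had a median log2 difference of -0.31 with 3 of 4 below 0 and 0 called, and only -0.097 where genes with a mean under 5 FPKM were left out. Akt1s1, for an mTORC1 inhibitor that AKT phosphorylates, had 24.6 ± 5.73 FPKM at PND4 and 30.2 ± 6.498 at PND1, and the inhibitor gene Deptor 7.79 ± 0.527 FPKM at PND4 and 7.34 ± 1.58 at PND1. Mlst8, for a subunit of both mTOR complexes, had 1.15, 1.71, 1.65 and 5.41 FPKM in the PND4 libraries, against 3.22, 4.02, 3.19 and 4.27 FPKM in the PND1 libraries, so that all but PND4 replicate 4 lay below PND1 (adjusted p = 0.834). Of mTORC2, Prr5 stood at 13.04 ± 6.64 FPKM at PND4 and 11.4 ± 5.64 at PND1, and Mapkap1 at 8.32 ± 3.41 FPKM at PND4 and 8.78 ± 1.91 at PND1.

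In the amino acid arm of mTORC1 no gene was called. Of all genes tested, 39.7% had a lower value at PND4, against which 1 of 9 and 1 of 8 in the lists that follow were lower, a contrast that was not tested. Of the RAG and Ragulator genes, which dock mTORC1 on the lysosome, 8 of 9 were higher with a median log2 difference of 0.24. That median was 0.47 without PND1 replicate 4 and 0.12 without PND4 replicate 3. The most abundant, Lamtor1 and Rraga, had 70.2 ± 2.31 and 58.1 ± 11.8 FPKM at PND4, against 71.1 ± 6.96 and 54.4 ± 3.87 FPKM at PND1. Lamtor2 had the largest difference, with 7.36 ± 1.11 FPKM at PND4 and 4.37 ± 3.39 at PND1 (adjusted p = 0.805). Lamtor3 had 27.8 ± 3.89 FPKM at PND4 and 20.7 ± 2.93 at PND1 (limma unadjusted p = 0.0318, adjusted p = 0.805). Of the GATOR and sensor genes 7 of 8 were higher (median 0.35), Seh1l among them with 33.5 ± 1.68 FPKM at PND4 and 27.0 ± 2.08 at PND1 (limma unadjusted p = 0.0419, adjusted p = 0.805). Sec13 had 48.5 ± 6.30 FPKM at PND4 and 47.3 ± 6.02 at PND1, and Wdr59 2.56 ± 1.11 FPKM at PND4 and 1.34 ± 0.892 at PND1.

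Of the AMPK genes and stress inhibitors, which restrain mTORC1 when energy is short, 11 were tested (median 0.14). Cab39, for a partner of the AMPK-activating kinase LKB1, had 22.9 ± 9.83 FPKM at PND4 and 31.2 ± 9.17 at PND1, and the AMPK subunit gene Prkag1 25.8 ± 3.53 FPKM at PND4 and 28.1 ± 1.42 at PND1. Downstream of mTORC1, 11 genes were tested (median 0.11). Rps6, for the ribosomal protein whose phosphorylation is the usual sign of mTORC1 activity, stood at 652 ± 48.9 FPKM at PND4 and 603 ± 23.2 at PND1. Eif4ebp1, for a translation repressor that mTORC1 inactivates, had 79.0, 102, 92.2 and 113 FPKM in the PND4 libraries, against 84.9, 62.7, 69.9 and 87.4 FPKM in the PND1 libraries, with overlap (limma unadjusted p = 0.0457, adjusted p = 0.805). Eif4b, for a helicase cofactor in translation, had 81.4 ± 2.45 FPKM at PND4 and 65.8 ± 6.14 at PND1 (limma unadjusted p = 0.0181, adjusted p = 0.775). Tfeb, for a lysosomal transcription factor held in the cytosol by mTORC1, had 4.55 ± 1.44 FPKM at PND4 and 2.59 ± 1.08 at PND1. These are RNA levels, and the phosphorylation by which this pathway signals was not measured.

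**Figure D4:**
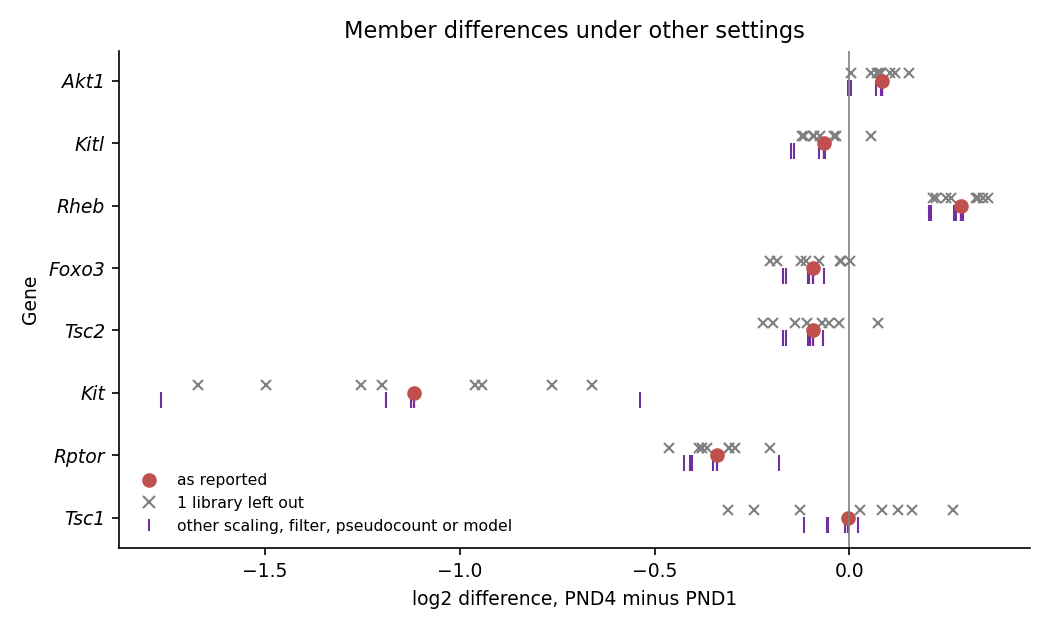
Log2 difference of PND4 minus PND1 (x axis) of the 8 genes as reported (red), with 1 library left out (grey crosses) and under another scaling, filter, pseudocount or model (purple bars). Rheb stays above 0 and Kit and Rptor below 0 under each setting drawn, and the other 5 genes cross 0.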

How the data were processed

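Per the labels' protocols, total RNA came from a kit for small samples and libraries followed Illumina's standard method. Trim Galore, HISAT2 and GRCm38 are named without versions in the submitters' processing notes. The authors deposited FPKM for 8 libraries. Another table the authors deposited holds, for each gene, the PND1 over PND4 ratio, this ratio as log2, and a p-value with its q-value. The program and annotation behind the FPKM, their strand setting, and that table's test were not found in these sources. The 8 genes, the lists and the tests were chosen with earlier results of these data known. FPKM were taken as log2(FPKM + 1), which understates changes of low genes, and fitted with limma 3.58.1 in R 4.3.3 (mean-dependent prior, no block) over 10756 genes, with 1027 untested. The steps were tested on simulated data. Low values of 2467 genes with 1 transcript were searched for whole reads over a range of depths. At best 33.6% lay within 0.1 of a whole number, where 20% would by chance, so depth is unknown. Positions came from GENCODE M21, with 11770 of 11783 identifiers found. For each pathway list the 2 most abundant genes and the 1 with the largest difference were named, and Lamtor3 and Eif4b were added after their values were seen. Some genes that this rule names are not reported here. A planned ratio of Rptor over Mtor is not analysed here. Alternatives were 3 other scalings, 2 filters, 2 pseudocounts, a replicate block, robust variance and leaving out each library. Figures were drawn with matplotlib 3.10.9.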

Additional observations from a re-analysis of the deposited data

Results flagged for a closer look

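Of 108 sets of 4 libraries examined for a sample far from the other 3, 8 stood out, where chance alone marks about 1 in 20. Among pathway genes, Mlst8 had 5.41 FPKM in PND4 replicate 4, against at most 1.71 in the other PND4 libraries. Cab39 had 37.6 FPKM in PND4 replicate 4, above 17.1 to 18.9 FPKM in the other PND4 libraries, and 17.6 FPKM in PND1 replicate 1, below 34.5 to 37.3 FPKM in the other PND1 libraries. Cab39 thus took a high and a low level within each age. Sec13 had 38.3 FPKM in PND1 replicate 1, below 49.6 to 51.6 FPKM in the other 3, and Seh1l 23.9 FPKM in PND1 replicate 4, below 27.8 to 28.3 FPKM. At PND4 the summed oocyte markers reached 303 FPKM in replicate 3 and lay between 45.9 and 69.6 FPKM in replicates 1, 2 and 4. Kit was highest among PND4 libraries there, and its log2 difference was -1.67 without that library. The summed granulosa markers were 907 FPKM in PND1 replicate 2, against 1350 to 1387 FPKM in the other PND1 libraries, and Kitl was highest there. The keratin genes Krt8, Krt18 and Krt19 and the surface epithelium sum (77.2 FPKM) were lowest among PND1 libraries in replicate 2. So were the granulosa markers Wt1, Amhr2, Irx3 and Nr2f2, while Foxl2, Fst and Inha were highest. Mitochondrially encoded genes took 29.4% of the listed FPKM in PND4 replicate 1 and between 22.4% and 23.4% in replicates 2 to 4 of that age. All 4 PND1 libraries lay between 26.6% and 30.6%, so that 29.4% stands apart only within PND4. In PND4 replicate 1 Kitl, Tsc2, Kit, Rptor and Tsc1 were lowest among PND4 libraries. That library also had the most genes at 0 of its age, 1097 against 531 to 642. Its median was 7.30 FPKM, against 8.90 to 8.98 FPKM in replicates 2 to 4. PND1 replicate 1 had 1234 genes at 0 and a median of 7.04 FPKM, and 0 of the 8 genes were lowest among PND1 libraries there. The part of the zeros and the median of PND4 replicate 1 in its low values was not tested.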

How the results depend on the processing

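Over 133 alternative values of the 8 genes' log2 differences, 123 kept their sign, 10 turned it and 0 passed the test (smallest adjusted p = 0.734). The values that turned were those of Akt1 with upper-quartile scaling (-0.0019), of Tsc1 with a pseudocount of 5 (0.022) and several with 1 library left out. Leaving out 1 library moved Kitl between -0.12 and 0.055, Foxo3 between -0.20 and 0.0030, Tsc2 between -0.22 and 0.073 and Tsc1 between -0.31 and 0.27, and moved Kit, without turning it, between -1.67 and -0.66. The log2 ratio of Tsc1 over Tsc2 turned to 0.090 with a pseudocount of 1 and ran from -0.61 to 0.49 with 1 library left out, and that of Kit over Kitl ran from -2.83 to -0.86. The 1 gene called over all genes, Gm16272, is named here after its values were seen. It is listed at 0 in each PND4 library, and the count of genes called ran from 0 to 1 with 1 library left out and was 0 without any 1 of the PND1 libraries. Numbers of replicates are shared between ages. Over the genes tested, same-numbered libraries deviated together little (correlations from -0.0088 to 0.12, against -0.14 to 0.11 for libraries of different number). With the replicate block 1 gene was called, and Kit had an unadjusted p of 0.0465 (adjusted p = 0.745), so no call among the 8 genes changed. Kit, Rptor and Tsc1 could not be fitted with the filter on a mean of 5 FPKM. The cause of these changes was not tested.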

Other observations

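For each of the 8 genes the highest PND4 library and the highest PND1 library bore the same replicate number. Akt1 was highest in replicate 1 of both ages, Kitl and Rptor in replicate 2, Foxo3, Tsc2, Kit and Tsc1 in replicate 3, and Rheb in replicate 4. This held for 8 of 8 of these genes, for 26 of the 79 other pathway genes tested (32.9%) and for 26.9% of all 10756 genes. It was noticed after the values were seen and was not tested, and nothing in the labels says what a number shares between ages.

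Kit per 100 FPKM of summed oocyte markers was 0.298, 3.57, 2.74 and 1.65 FPKM in the PND4 libraries, against 7.71, 14.4, 16.1 and 14.6 FPKM in the PND1 libraries, so that the ages did not overlap. That separation depends on which markers were summed, and the sum gives abundant markers more weight. Of 12 oocyte markers tested, 7 were higher and 5 lower at PND4, 0 were called and 4 had an unadjusted p under 0.05. Of these 4, Padi6 and Zp3 averaged 37.6 ± 30.7 and 24.6 ± 24.5 FPKM at PND4, against 8.90 ± 8.86 and 4.88 ± 5.53 FPKM at PND1. Dazl and Figla averaged 0.913 ± 0.929 and 0.377 ± 0.593 FPKM at PND4, against 3.32 ± 1.33 and 3.96 ± 2.84 FPKM at PND1 (SD, n = 4 each). The germ cell gene Ddx4, too low to be tested, averaged 0.877 ± 1.41 FPKM at PND4 and 0.352 ± 0.450 FPKM at PND1. None of the 4 passed the test over all genes (limma, adjusted p = 0.740, 0.740, 0.805 and 0.740). This comparison was chosen after the values were seen, and no test was made of the Kit level per oocyte marker.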
